A study of Homo sapiens with 2 samples.

Results

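The GOLGA8 genes are near copies of one another on chromosome 15, and 10 of them, GOLGA8A, GOLGA8B, GOLGA8H, GOLGA8J, GOLGA8K, GOLGA8M, GOLGA8N, GOLGA8O, GOLGA8Q and GOLGA8R, were taken by symbol from both abundance tables. They are 10 of 28117 named genes and 14 of 70866 transcripts. The family was picked with the low ratio of GOLGA8K and its copies already known, so its ratios are given as a description. The libraries were made from poly-A RNA of HEK293T, a human embryonic kidney cell line grown in serum-containing medium with penicillin and streptomycin. Cells of the tRF-3004b library were reverse transfected with Lipofectamine RNAiMax and a mimetic of tRF-3004b, which is a fragment of a transfer RNA, and cells of the control library with the non-targeting RNA GL2. Both RNAs were used at 500 nM and RNA was taken at 120 h in both cultures. Each group had a single library, so nothing could be tested between the conditions, and each 95% interval covers counting error between these 2 libraries only.

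Golgins are long coiled-coil proteins that stand on Golgi membranes and capture incoming vesicles. The GOLGA8 genes are related to GOLGA2, which encodes the cis-Golgi golgin GM130, and they spread through segmental duplication. Their blocks lie at breakpoints of recurrent rearrangements of chromosome 15. The product of GOLGA8A, golgin-67, is a Golgi membrane protein, whereas little is known of what the remaining copies do.

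Summed over the 10 members, GOLGA8 RNA stood 2.44-fold lower in the tRF-3004b library. The sum was 168 estimated counts (94.6 CPM, counts per 1000000 of the TMM-scaled library size) in the tRF-3004b library and 4608 counts (231 CPM) in the control library, a log2 ratio of -1.29 (interval -1.52 to -1.07). At the control level, 410 counts would have fallen in a library of the tRF-3004b depth. As transcript abundance per length, the sum was 32.5 TPM in the tRF-3004b library and 101 TPM in the control library. Mean CPM reached 10 in 8711 genes, and 3.80% of them lay below the family's log2 ratio. The median log2 ratio was -0.12 over these genes and -0.33 over the 871 of them with transcripts of 4984 to 6064 bases, and 7.46% of the 871 lay below the family. This range holds most members but not GOLGA8A, the member with the most counts, whose main transcript has 4232 bases. Minus the median of genes with transcripts of 4560 to 5591 bases and a mean CPM of at least 1, the family's log2 ratio was -0.96. The main transcripts of GOLGA8A and GOLGA8B (5607 bases) lie outside that range. Fewer cells with GOLGA8 RNA and less of it per cell cannot be told apart in bulk RNA. The histogram places the GOLGA8 sums among all genes.

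**Figure D1:**
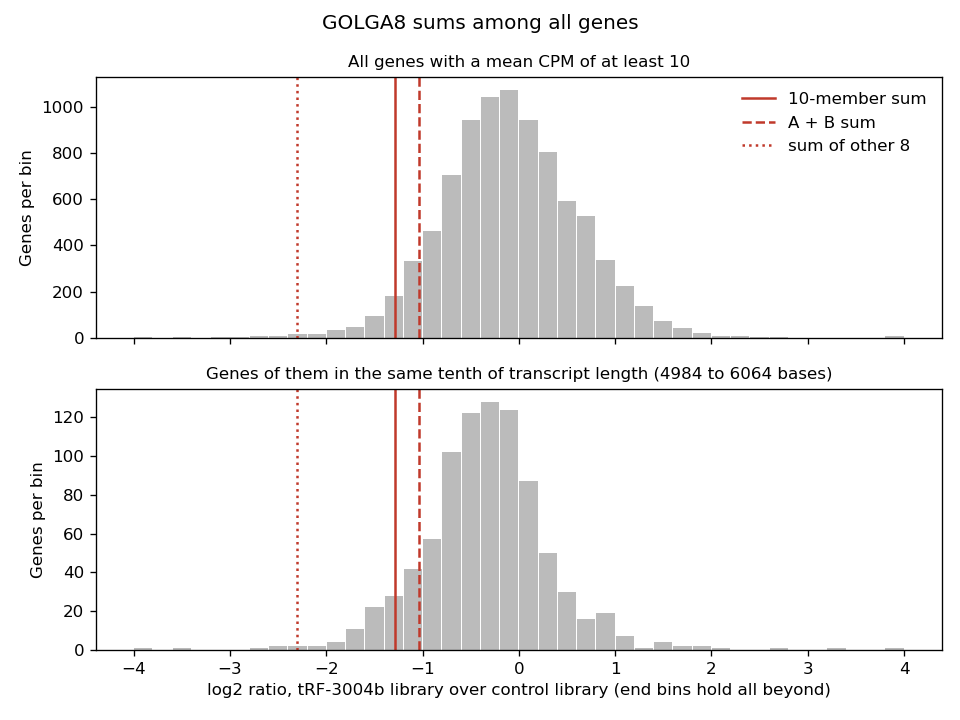
Distribution of the log2 ratio (tRF-3004b library over control library) over genes whose mean CPM reached 10, above for all 8711 and below for 871 with transcripts of 4984 to 6064 bases, as genes per bin. Red lines mark the sum of the 10 members at -1.29, of GOLGA8A and GOLGA8B at -1.03 and of the other 8 copies at -2.30, all in the lower tail.

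The ratio was uneven between the subgroups. GOLGA8A and GOLGA8B together had 145 counts (81.6 CPM, 28.0 TPM) in the tRF-3004b library and 3331 counts (167 CPM, 73.3 TPM) in the control library, a log2 ratio of -1.03 (interval -1.28 to -0.79). The other 8 copies together had 23 counts (12.9 CPM, 4.44 TPM) in the tRF-3004b library and 1277 counts (64.0 CPM, 27.8 TPM) in the control library, a log2 ratio of -2.30 (interval -2.97 to -1.71). The pair made up 86.3% of the family's counts in the tRF-3004b library (exact binomial interval 80.2% to 91.1%) and 72.3% in the control library (71.0% to 73.6%). The low ratio of the 8 copies was known when the family was chosen, so these shares are a description.

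The tRF-3004b library held 1809193 estimated counts and the control library 19609933, a 10.8-fold difference in depth, so the lower library sets the precision of every ratio. One count equalled 0.563 CPM in the tRF-3004b library and 0.0501 CPM in the control library. Markers of the HEK293 lineage summed to 1307 CPM in the tRF-3004b library and 1770 CPM in the control library. VIM made up most of this sum, with 980 CPM in the tRF-3004b library and 1447 CPM in the control library, and NEFL and LHX1 were lower in the tRF-3004b library as well, LHX1 with 0 counts there and 61 in the control library. LIN28B, NEFM and PAX2 were higher in the tRF-3004b library, LIN28B with 260 CPM there and 210 CPM in the control library. NEFM had 24 counts in the tRF-3004b library and 214 in the control library. PAX2 had only 2 and 19, so its direction is uncertain. All 6 blood markers had counts in both libraries and summed to 51.8 CPM in the tRF-3004b library and 4.01 CPM in the control library. All 7 fibroblast markers had counts in both and summed to 116 CPM in the tRF-3004b library and 36.1 CPM in the control library. FBLN1, with 473 of the 719 control counts, was lower in the tRF-3004b library, at 20.8 CPM (37 counts) there and 23.7 CPM in the control library. The rest were higher there, from PDGFRA (3.38 CPM from 6 counts, 2.91 CPM in the control library) to COL1A2 (17.5 CPM, 0.401 CPM in the control library). Of the 5 epithelial markers KRT5 was at 0 in both libraries, and the list summed to 34.9 CPM in the tRF-3004b library and 10.5 CPM in the control library. The part of these markers in the GOLGA8 values was not tested.

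The copies fell into 3 subgroups by coding sequence (GENCODE 29). GOLGA8A and GOLGA8B differed at 3 of 1893 aligned coding bases, an identity of 99.8%. GOLGA8H, GOLGA8J, GOLGA8K and GOLGA8M shared 98.1% to 99.3% of their bases pair by pair. GOLGA8N, GOLGA8O, GOLGA8Q and GOLGA8R shared 99.4% to 99.8%. Between these 2 subgroups of 4 the identity was 95.7% to 96.5%, and between the GOLGA8A and GOLGA8B pair and the other 8 copies it was 81.3% to 82.8%. The map of coding identity shows the 3 blocks.

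**Figure D2:**
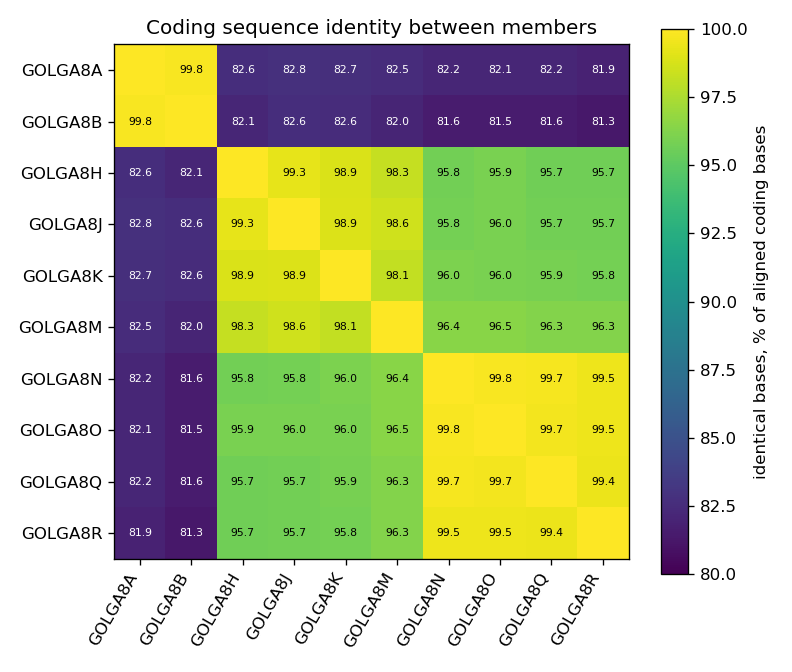
Identity between the coding sequences of the 10 members, in percent of aligned bases, with members on both axes and the value of each pair in its cell. GOLGA8A and GOLGA8B form a block at 99.8%, and the other 8 copies form 2 blocks of 4.

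This similarity limits which copies can be told apart. Kallisto, the program the authors used, by default assigns a read by the words of 31 bases that it holds and shares it among transcripts with the same words. Of the distinct 31-base words in the GENCODE transcripts of GOLGA8O, 98.5% were also found in another member, and 1.22% were found in no other gene. For GOLGA8H the shared portion was 90.0%, and for GOLGA8N, which has longer annotated transcripts, it was 53.7%. GOLGA8A shared 75.3% of its words with GOLGA8B. In contrast, only 4.42% of the words of GOLGA8A and GOLGA8B occurred in the other 8 copies. These shares cover GENCODE sequence only. For GOLGA8H, GOLGA8J, GOLGA8K, GOLGA8M and GOLGA8O the longest GENCODE transcript had 1894 to 1997 bases, whereas the quantified RefSeq transcripts had 5188 to 5270, so most of their quantified sequence was not compared. Counts of single copies are therefore uncertain, and how far reads of the pair and of the 8 copies can be told apart outside the compared sequence was not tested. Outside the members, GOLGA8IP, GOLGA8T and GOLGA8S held 11.5%, 8.74% and 7.96% of the members' words.

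GOLGA8B and the 8 copies also have different promoters. In the RefSeq promoter table (GRCh38.p14, 250 bases before to 50 bases after the start), 9 of the 10 members had an entry, and GOLGA8A had none. The promoters of the 8 copies were 96.3% to 100% identical over 228 to 300 aligned bases (median 97.7% over 28 pairs). All 8 held the motif CCAAT, searched on both strands, and in 7 of them it began 76 bases before the start. In GOLGA8Q it began 146 bases before. Of 27305 promoters of this length, 35.7% held CCAAT. The promoter of GOLGA8B held none and had 69.3% G and C, against 56.7% in GOLGA8K. The GC box GGGCGG, the E-box CACGTG and TATAAA, found in 44.6%, 7.43% and 12.0% of all promoters, were in none of the 9. The motifs were chosen after the sequences were seen, and a match is a description of the letters only. One promoter of each subgroup is shown, 5′ to 3′, with CCAAT in capitals. They are chr15:32403243-32403542 (minus strand) for GOLGA8K, chr15:32593206-32593505 (plus strand) for GOLGA8N and chr15:34583602-34583901 (minus strand) for GOLGA8B.
GOLGA8K: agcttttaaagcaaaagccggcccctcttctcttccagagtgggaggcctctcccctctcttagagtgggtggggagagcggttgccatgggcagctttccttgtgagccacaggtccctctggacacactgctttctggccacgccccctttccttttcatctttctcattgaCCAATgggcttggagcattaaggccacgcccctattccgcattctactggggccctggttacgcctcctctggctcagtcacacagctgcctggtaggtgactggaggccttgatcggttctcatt
GOLGA8N: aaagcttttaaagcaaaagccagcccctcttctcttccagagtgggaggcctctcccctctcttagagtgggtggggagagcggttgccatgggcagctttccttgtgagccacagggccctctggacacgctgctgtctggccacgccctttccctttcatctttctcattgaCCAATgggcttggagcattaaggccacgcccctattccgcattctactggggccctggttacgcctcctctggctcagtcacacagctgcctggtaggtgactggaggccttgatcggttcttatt
GOLGA8B: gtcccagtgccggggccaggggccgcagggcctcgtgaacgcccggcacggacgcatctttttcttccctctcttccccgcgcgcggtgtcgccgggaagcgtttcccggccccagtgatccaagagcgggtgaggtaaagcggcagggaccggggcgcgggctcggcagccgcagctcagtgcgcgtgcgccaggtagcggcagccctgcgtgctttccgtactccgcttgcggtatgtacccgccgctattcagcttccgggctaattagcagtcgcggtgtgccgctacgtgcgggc

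Within the coding sequence, the pair and the 8 copies differed at a match to the transfected RNA. In the longest GENCODE transcript all 10 members held the match. The heptamer AGATTTG, complementary to bases 2 to 8 of the tRF-3004b mimetic, began at coding base 785 in all 8 copies. There the pairing also took in base 9 of the mimetic, a run of 8 bases. GOLGA8A and GOLGA8B did not hold the heptamer in their coding sequence. Where their coding sequence aligned with that stretch, from base 845 in GOLGA8A and base 851 in GOLGA8B, they carried A3G, counted from 1 at the 5′ end of the heptamer with the base of the 8 copies given first. Their longest GENCODE transcripts, both of the retained-intron type, held the heptamer once. It began at base 5730 of 6233 bases in GOLGA8A and at base 5980 of 6488 bases in GOLGA8B. Apart from coding sequence, the members' other GENCODE transcripts were not searched for AGATTTG. Among genes whose longest GENCODE transcript was within 10% of a member's in length, the share with AGATTTG ran from 14.6% at the length of GOLGA8K to 44.8% at that of GOLGA8B. The heptamer for the control RNA, CGCGTAC, was in the longest GENCODE transcript of 0 members. The part of the quantified RefSeq transcripts beyond the GENCODE sequence was not searched for either heptamer. GOLGA8N, whose longest GENCODE transcript has 5329 bases, held AGATTTG at 2 places in it. The near copies share this stretch, so the 8 matches are not independent, and the part of a match in any ratio was not tested. The sequences are shown 5′ to 3′, with bases 2 to 8 of each RNA and the aligned heptamer of the genes in capitals.
tRF-3004b mimetic: uCAAAUCUcgguggaaccucca
control RNA GL2: cGUACGCGgaauacuucgauu
GOLGA8K (as in GOLGA8H, J, M, N, O and R): aatgtcgcaggAGATTTGcacattaaaga
GOLGA8Q: aatgttgcaggAGATTTGcacattaaaga
GOLGA8A (as in GOLGA8B): aatgtcgcaggAGGTTTGcacattgaagg

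Within the 8 copies the coding subgroups, formed after values were seen, had unlike ratios, which rested on GOLGA8O. GOLGA8H, GOLGA8J, GOLGA8K and GOLGA8M summed to 8 counts in the tRF-3004b library and 805 in the control library, a log2 ratio of -3.15 (interval -4.38 to -2.18). GOLGA8N, GOLGA8O, GOLGA8Q and GOLGA8R summed to 15 counts in the tRF-3004b library and 471 in the control library, a log2 ratio of -1.48 (interval -2.33 to -0.75). The intervals overlapped slightly, between -2.33 and -2.18. GOLGA8O held 12 of these 15 counts and had the smallest share of 31-base words of its own, 1.22%. Without it, GOLGA8N, GOLGA8Q and GOLGA8R summed to 3 counts in the tRF-3004b library and 381 in the control library, a log2 ratio of -3.46 (interval -5.78 to -1.94), close to that of the first subgroup. As shares of the 8 copies, the first subgroup made up 34.8% in the tRF-3004b library (16.4% to 57.3%) and 63.0% in the control library (60.3% to 65.7%). All of this rests on 23 counts in the tRF-3004b library, divided between sequences that are 95.7% to 96.5% identical in their coding part.

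**Figure D3:**
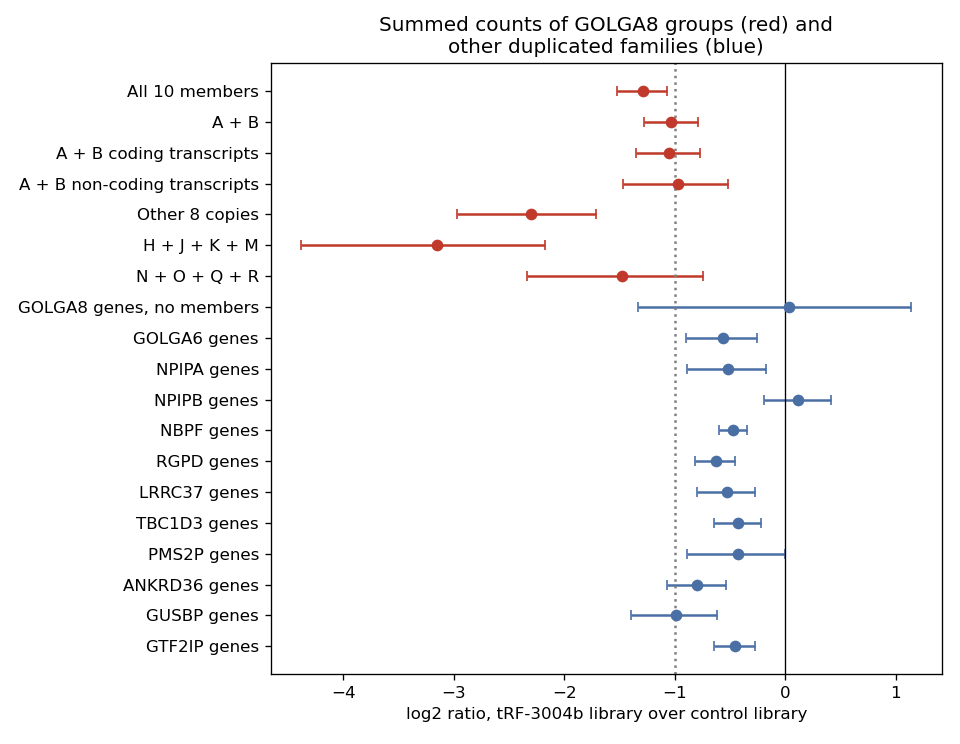
Log2 ratio of summed counts (tRF-3004b library over control library) with the exact 95% counting interval. Groups of members are in red, and the GOLGA8 genes that were not members and other duplicated families are in blue. The dotted line marks a ratio 2-fold lower. The sum of GOLGA8H, J, K and M lies farthest left, at -3.15.

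GOLGA8A and GOLGA8B were the abundant pair. GOLGA8A (chromosome 15, 34379068 to 34437808, GRCh38.p14) had 93 counts (18.6 TPM) in the tRF-3004b library and 1706 counts (41.8 TPM) in the control library, a log2 ratio of -0.71 (interval -1.03 to -0.41). GOLGA8B (chromosome 15, 34525095 to 34583651) had 53 counts (9.45 TPM) in the tRF-3004b library and 1625 counts (31.4 TPM) in the control library, a log2 ratio of -1.45 (interval -1.87 to -1.05). GOLGA8A held 64.1% of the pair's counts in the tRF-3004b library (55.8% to 71.9%) and 51.2% in the control library (49.5% to 52.9%). With 99.8% coding identity between them, this split is uncertain.

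The main coding transcripts of the pair had similar ratios, as the plot of counts by transcript shows. NM_181077 of GOLGA8A had 54 counts in the tRF-3004b library and 1218 in the control library, a log2 ratio of -1.01 (interval -1.43 to -0.61). NM_001023567 of GOLGA8B had 51 counts in the tRF-3004b library and 1080 in the control library, a log2 ratio of -0.91 (interval -1.35 to -0.51). The non-coding transcripts lay far apart. NR_027409 of GOLGA8A had 39 counts in the tRF-3004b library and 336 in the control library, a log2 ratio of 0.38 (interval -0.14 to 0.86). NR_027410 of GOLGA8B had 2 counts in the tRF-3004b library and 545 in the control library, a log2 ratio of -4.55 (interval -7.65 to -2.74). The first interval held 0 and the second lay wholly below it. These intervals do not cover how reads were divided between transcripts of the near-identical pair, so this split is uncertain. Summed over both genes, the non-coding transcripts had 40 counts in the tRF-3004b library and 882 in the control library, a log2 ratio of -0.97 (interval -1.47 to -0.52). The coding transcripts had 105 counts in the tRF-3004b library and 2450 in the control library, a log2 ratio of -1.05 (interval -1.35 to -0.77), and the intervals of these classes overlapped. Non-coding transcripts made up 27.6% of the pair's counts in the tRF-3004b library (20.5% to 35.6%) and 26.5% in the control library (25.0% to 28.0%). NM_001368072 of GOLGA8A had 0 counts in the tRF-3004b library and 151 in the control library. That is 4.48-fold lower when the tRF-3004b library is set to a floor of 3 counts, and the interval of the log2 ratio ended at -1.85. NM_001368071 of GOLGA8A rounded to 0 counts in both libraries.

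**Figure D4:**
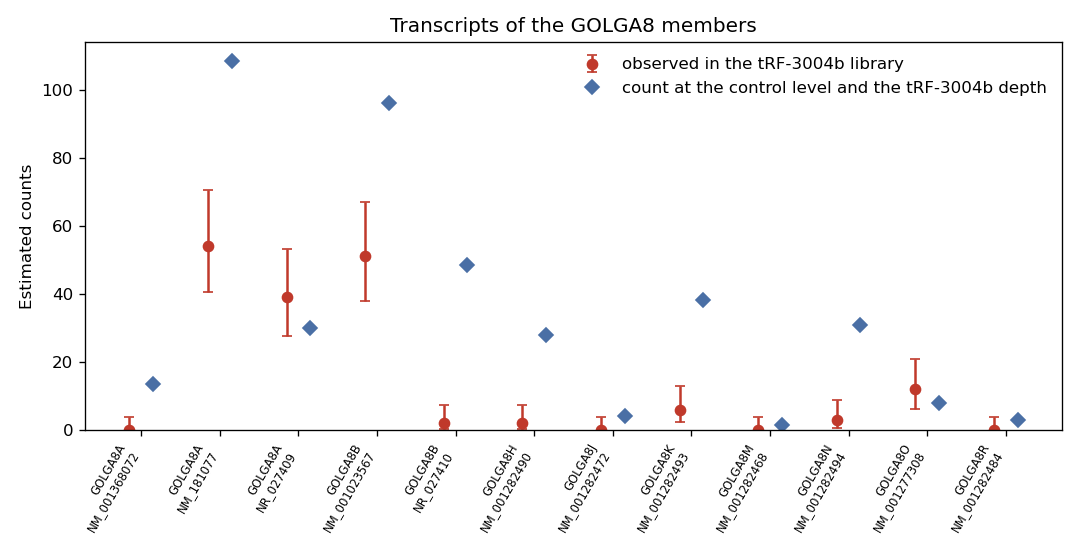
Estimated counts of each member transcript observed in the tRF-3004b library (red, with exact Poisson 95% intervals) and the count that the control level would give at the same depth (blue diamonds). NR_027409 of GOLGA8A is observed at 39 against 29.9 from the control level, and NR_027410 of GOLGA8B at 2 against 48.5. The intervals do not cover how reads were divided between near copies, so the split between transcripts is uncertain.

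The pair also carries the 2 loci of miR-1233. MIR1233-1 (chromosome 15, 34382069 to 34382150) lies within the span of GOLGA8A and MIR1233-2 (chromosome 15, 34528290 to 34528371) within that of GOLGA8B, and neither overlapped a GENCODE exon of a GOLGA8 gene. Mature miRNAs are not captured by poly-A selection and were not measured.

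Of the first subgroup of copies, GOLGA8K and GOLGA8H carried most counts. GOLGA8K (chromosome 15, 32389599 to 32403292) had 6 counts (1.10 TPM) in the tRF-3004b library and 429 counts (9.44 TPM) in the control library, a log2 ratio of -2.65 (interval -4.13 to -1.54). GOLGA8H (chromosome 15, 30604028 to 30617752) had 2 counts (0.377 TPM) in the tRF-3004b library and 313 counts (6.78 TPM) in the control library, a log2 ratio of -3.75 (interval -6.85 to -1.94). Both were low in the tRF-3004b library, and their intervals overlapped widely. GOLGA8J (chromosome 15, 30082955 to 30096690) had 0 counts in the tRF-3004b library and 45 in the control library. That is 1.34-fold lower when the tRF-3004b library is set to the same floor, and the interval of the log2 ratio ended at -0.06. GOLGA8M (chromosome 15, 28698583 to 28713333) had 0 counts in the tRF-3004b library and 18 in the control library. At its control level 1.60 counts would have fallen in the tRF-3004b library, under the floor of 3, so a difference was not detectable at this depth.

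The second subgroup held the copies with the most unlike ratios. GOLGA8N (chromosome 15, 32593456 to 32607237) had 3 counts (0.525 TPM) in the tRF-3004b library and 348 counts (7.45 TPM) in the control library, a log2 ratio of -3.33 (interval -5.65 to -1.81). GOLGA8O (chromosome 15, 32441914 to 32461984) had 12 counts (2.43 TPM) in the tRF-3004b library and 90 counts (1.98 TPM) in the control library, a log2 ratio of 0.58 (interval -0.42 to 1.46). It was the 1 member with a ratio above 0, but its interval held 0. GOLGA8N and GOLGA8O differ at 3 of 1896 aligned coding bases, and together they had 15 counts in the tRF-3004b library and 438 in the control library, a log2 ratio of -1.37 (interval -2.23 to -0.64). GOLGA8R (chromosome 15, 30400562 to 30414260) had 0 counts in the tRF-3004b library and 33 in the control library, against 2.94 counts at its control level, and no difference was detectable. GOLGA8Q (chromosome 15, 30552050 to 30565684) had 0 counts in both libraries, which allows up to 1.69 CPM in the tRF-3004b library and 0.150 CPM in the control library (a floor of 3 counts). The GOLGA8Q transcript in the table is 1899 bases long, against 5172 to 5329 bases for the other 7 copies.

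Counted one by one, 7 of the 10 members had a mean CPM of at least 1. Of these 7, 5 were at least 2-fold lower in the tRF-3004b library, beside 14.3% of all 13750 genes that passed the same filter. GOLGA8J, with 0 counts there, was among the 5 only through the added pseudocount of 0.5, scaled in proportion to library size. The interval lay wholly below 0 for 6 of the 7, beside 28.6% of all genes, and wholly beyond 2-fold lower for 4 of the 7, beside 1.94%. The members were chosen on this ratio, so nothing is read from these counts. In order of level per length, the control library ran from GOLGA8A and GOLGA8B through GOLGA8K, GOLGA8N and GOLGA8H to GOLGA8O, GOLGA8J, GOLGA8R and GOLGA8M. In the tRF-3004b library GOLGA8A and GOLGA8B again led, followed by GOLGA8O, GOLGA8K, GOLGA8N and GOLGA8H, and the counting intervals of the last 4 overlapped. The plot of levels by member shows both libraries.

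**Figure D5:**
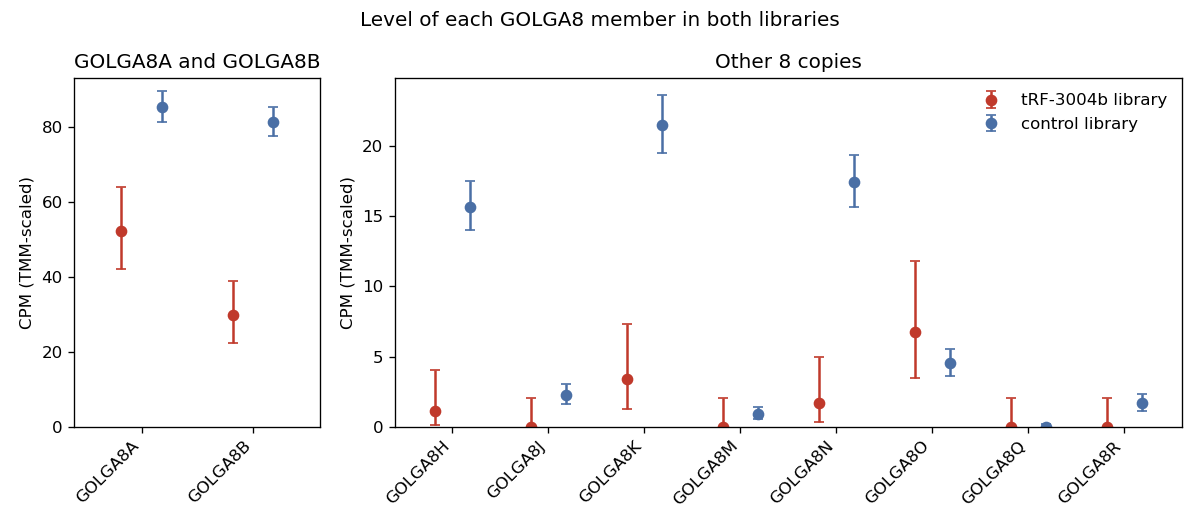
CPM of each member in the tRF-3004b library (red, left of each pair) and the control library (blue, right), with exact Poisson 95% intervals, on separate axes for the abundant pair and the other 8 copies. GOLGA8K stands at 3.38 CPM in the tRF-3004b library, against 21.5 CPM in the control library, while the intervals of GOLGA8O overlap.

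The GOLGA8 genes that were not members had almost no counts. The 8 of them summed to 7 counts in the tRF-3004b library and 77 in the control library, a log2 ratio of 0.03 (interval -1.33 to 1.14) that turns below 0 in TPM, where the sums were 1.34 in the tRF-3004b library and 1.73 in the control library. Most of the control counts, 75, were given to GOLGA8EP, a transcribed pseudogene with 0 counts in the tRF-3004b library. GOLGA8S had 6 counts in the tRF-3004b library and 0 in the control library. With these genes included, the family stood at a log2 ratio of -1.25.

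Other families of near copies, quantified by the same program, are shown in the plot of family ratios. Of 11 such families 10 had a summed log2 ratio below 0, beside 7627 of all 13750 genes whose mean CPM reached 1. The GOLGA6 genes, another duplicated golgin family, had 86 counts in the tRF-3004b library and 1432 in the control library, a log2 ratio of -0.57 (interval -0.90 to -0.25). The lowest was GUSBP, a set of pseudogenes of beta-glucuronidase, at -0.99 (interval -1.39 to -0.61), whose interval overlapped that of the GOLGA8 family. ANKRD36 genes stood at -0.80, RGPD at -0.63, LRRC37 at -0.53, NPIPA at -0.52, NBPF at -0.47, GTF2IP at -0.46, PMS2P at -0.43 and TBC1D3 at -0.43. NPIPB stood at 0.12 (interval -0.19 to 0.41), but lower in TPM, with 30.7 in the tRF-3004b library and 34.1 in the control library. The 8 GOLGA8 copies without the pair, at -2.30 (interval -2.97 to -1.71), lay below the interval of every one of these 11 families. These copies were picked with their low ratio known, and they are part of a family beside whole families, so nothing is read from this.

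Genes on a list of golgins, Golgi tethers and other Golgi-associated proteins, such as small GTPases, lay on both sides of 0. Of 33 listed, 32 had a mean CPM of at least 1. Their median log2 ratio was 0.03, against -0.11 over all 13750 genes, and it turned below 0 with total counts (-0.02) and with TPM (-0.29). Of the 32, 3 were at least 2-fold lower and 1 at least 2-fold higher, so that 9.38% were lower beside 14.3% of all genes, for which the share higher was 12.3%. The interval lay wholly below 0 for 10 of the 32, beside 28.6% of all genes, and wholly above 0 for another 10, beside 23.3%. GOLGA2, the GM130 gene related to GOLGA8, had 32 counts in the tRF-3004b library and 341 in the control library, a log2 ratio of 0.07 (interval -0.50 to 0.60). GOLGA4, a trans-Golgi golgin, was the highest at 1.28 (interval 1.13 to 1.43), with 245 CPM in the tRF-3004b library and 101 CPM in the control library. RAB1B, a small GTPase of traffic into the Golgi, followed at 0.71 and COG8 at 0.66. Among those whose mean CPM reached 10, the lowest were COG3 at -1.34 (interval -1.80 to -0.91), GOLGA1, a trans-Golgi golgin also known as golgin-97, at -1.13 (interval -1.77 to -0.56), and COG5 at -0.96. COG3, COG5 and COG8 encode subunits of the conserved oligomeric Golgi complex, a tether of vesicles within the Golgi.

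Genes around the members on chromosome 15 were spread on both sides of 0. Of 57 genes in the tables within 500 kb of a member, 38 had a mean CPM of at least 1, with a median log2 ratio of -0.16. Of the 38, 8 were at least 2-fold lower, 21.1% beside 14.3% of all genes, and 5 at least 2-fold higher, beside 12.3% of all genes. Mean CPM reached 10 in 18, of which 1 was at least 2-fold lower, 5.56% beside 8.6% of all genes, and 0 were at least 2-fold higher, beside 6.13%. The lowest of the 18 were the pseudogene LOC100288637 at -1.03, the DNA repair nuclease gene FAN1 at -0.84 (interval -1.31 to -0.42) and WHAMMP2 at -0.76. NOP10, a component of H/ACA ribonucleoproteins, was the highest at 0.87 (interval 0.52 to 1.20), with 47.9 CPM in the tRF-3004b library and 26.2 CPM in the control library. EMC7 and EMC4, subunits of the ER membrane complex, stood at 0.82 and 0.61. LPCAT4, a gene close to GOLGA8A that was looked up after values were seen, encodes a lysophospholipid acyltransferase and had 7 counts in the tRF-3004b library and 127 in the control library, a log2 ratio of -0.69.

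Some sets of other duplicated genes of the same blocks, chosen after their values were seen, had sums below 0. Pseudogenes near the members outside these sets, also looked up after values were seen, lay on both sides of 0. HERC2P11, with 9 counts in the tRF-3004b library and 28 in the control library, stood at a log2 ratio of 1.82. PDCD6IPP2 stood at 0.31 and HERC2P9 at -0.37. ARHGAP11B, the human-specific partial copy of ARHGAP11A next to GOLGA8H, had 3 counts in the tRF-3004b library and 163 in the control library, a log2 ratio of -2.24 (interval -4.57 to -0.70), but summed with ARHGAP11A the log2 ratio was -0.22 (interval -0.41 to -0.04). CHRFAM7A, a fusion that contains part of the nicotinic receptor gene CHRNA7, had 0 counts in the tRF-3004b library and 129 in the control library. That is 3.83-fold lower when the tRF-3004b library is set to the floor of 3 counts, and the interval of the log2 ratio ended at -1.62. Summed with CHRNA7, CHRFAM7A stood at -1.11 (interval -1.78 to -0.51). The ULK4 pseudogenes ULK4P1, ULK4P2 and ULK4P3 summed to 7 counts in the tRF-3004b library and 240 in the control library, a log2 ratio of -1.60 (interval -2.94 to -0.55). The 4 WHAMM pseudogenes summed to 56 counts in the tRF-3004b library and 1047 in the control library, a log2 ratio of -0.74 (interval -1.15 to -0.35). That sum takes in WHAMMP3, which is not within 500 kb of a member. Of the copies within 500 kb, WHAMMP1 stood at -1.13, WHAMMP2 at -0.76 and WHAMMP4 at 0.07.

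Among the 3 genes outside the family with a log2 ratio nearest to its sum, where the mean CPM reached 10, were SLC2A13 at -1.29 with 32 counts in the tRF-3004b library and 878 in the control library, and HGSNAT at -1.29 with 39 in the tRF-3004b library and 1072 in the control library. SLC2A13 encodes an inositol transporter and HGSNAT a lysosomal acetyltransferase. Likeness is here the distance in 1 ratio between 2 libraries, which many genes can share.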

How the data were processed

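Poly-A RNA was sequenced from 1 tRF-3004b and 1 control library of HEK293T cells. The authors deposited estimated counts and TPM per RefSeq transcript, with lengths, per the file headers. Per the submitters' processing notes they used kallisto 0.46.1 and GRCh38, and the annotation release is not given in the sources used here, nor are trimming or strand. The deposited estimated counts are not whole and were summed per gene or family, then rounded, so a sum can differ by 1 from its rounded parts. Of 70866 transcripts, 70245 were named from the RefSeq table and 293 from GENCODE 29, and 328 stayed unnamed (0.0713% of tRF-3004b counts and 0.0723% of control counts) and were left out.

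Library sizes were scaled with TMM in edgeR 4.0.16 (R 4.3.3), 0.983 for the tRF-3004b and 1.02 for the control library. No model was fitted, since 1 library per group leaves no spread. Log2 ratios are tRF-3004b over control, scaled to equal library sizes. A pseudocount of 0.5, itself scaled in proportion to library size, was added to each count first. Intervals are exact conditional Clopper-Pearson 95% intervals from the rounded counts. PCR copies could not be told from molecules, so these intervals and the floor of 3 counts hold counting error only. The computation was tested on simulated counts. GENCODE 29 transcripts gave coding identity (subgroups at 98%) and 31-base words on the sense strand, and RefSeq gave promoters. RefSeq transcript sequences were not used here. Members and lists were chosen with earlier results of these data known. Named genes were all members, the 3 lowest and 3 highest of each list with a mean CPM of at least 10, each duplicated family, and the 3 genes nearest the family sum, of which 1 is not reported here. GOLGA2, the coding subgroups, the copies beside the members and the non-member GOLGA8 genes named singly were added after values were seen. The alternatives tried were scaling by total counts or by size factors of DESeq2 1.42.0, other filters and pseudocounts, TPM with 1 added, removal of the length median and other member sets. Python 3.11.15 with biopython 1.88 was used.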

Additional observations from a re-analysis of the deposited data

How the results depend on the processing

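The sums over the 10 members, over GOLGA8A and GOLGA8B and over the other 8 copies stayed below 0 under each alternative, from -1.77 to -0.96, from -1.35 to -0.71 and from -2.40 to -1.97. With TPM and 1 added, which moves the median of all genes by -0.28, the family sum was -1.61 and the GOLGA8A and GOLGA8B sum -1.35. Minus the median of genes with transcripts of 4560 to 5591 bases, they were -0.96 and -0.71, both less than 2-fold lower. The main transcripts of GOLGA8A (4232 bases) and GOLGA8B (5607 bases) lie outside that range. Leaving out GOLGA8A, an alternative chosen after seeing the data, gave -1.77, and leaving out each other member gave values inside the family's interval. Leaving GOLGA8O out of its coding subgroup, likewise chosen after seeing the data, took that sum to -3.46, against -1.48 with it. The 1969 genes at least 2-fold lower became 1084 at a mean CPM of at least 5 and 6048 without a filter beyond 1 count. The 1689 genes at least 2-fold higher became 710, 3156 and, with TPM, 680. The depth of the tRF-3004b library limits every single copy. No paired analysis was possible because each group had 1 library.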
